A study of Mus musculus with 2 samples.

Results

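The 6 transcription factor genes of the pallial progenitor lineage, *Pax6*, *Emx1*, *Emx2*, *Lhx2*, *Eomes* and *Insm1*, were followed from radial glial cells (RGCs) through intermediate progenitor cells (IPCs) to excitatory neurons of the embryonic mouse cortex. They were found by gene symbol, were chosen with earlier results of these data known, and are 6 of the 32285 genes listed in the data. The study sequenced single cells from the cerebral cortex of embryonic day (E) 16.5 mouse embryos that were controls of an *Eomes-Cre* line, named EomesDot in the labels, with the genotype WT. There are 2 libraries, replicates 1 and 2, and no other group, so every comparison lies between cell classes of these libraries (n = 2). *Eomes*, the driver of that line, is among the genes described here. Whether the control embryos carried the *Cre* allele, and how many embryos went into a library, are not stated, and p-values then measure only the spread between the libraries. The tissue was dissociated with papain and processed with a droplet kit that tags each captured RNA molecule at its 3′ end with a unique molecular identifier (UMI).

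The cortex is built from the pallium, the dorsal part of the telencephalon. RGCs are its stem cells, with their cell bodies in the ventricular zone. Many of their daughters become IPCs, which divide in the subventricular zone and give rise to excitatory neurons, and the order PAX6, then EOMES (also called TBR2), then TBR1 is a classic description of this sequence. EMX1, EMX2 and LHX2 are homeodomain proteins known for the patterning of the dorsal telencephalon, PAX6 is a paired-box and homeodomain protein of ventricular zone progenitors, EOMES is a T-box factor and the standard marker of IPCs, and INSM1 is a zinc-finger factor known for its part in the formation of basal progenitors and in neuroendocrine cells. GABAergic neurons come from the subpallium, the ventral telencephalon, and reach the cortex by migration.

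*Pax6* lies at chr2:105668896-105698410, *Lhx2* at chr2:38339271-38369737 and *Insm1* at chr2:146221997-146225020. *Emx1* lies at chr6:85187931-85204463, *Emx2* at chr19:59458690-59465357 and *Eomes* at chr9:118478186-118486132, all on the GRCm38.p6 build of the mouse genome with RefSeq positions. The sequence just before the start of 3 of these genes is shown, because *Eomes* had the largest step of the 6 and *Emx1* and *Emx2* are paralogues that differed along the lineage. Each line holds the 250 bases before the start that the RefSeq promoter table uses, 5′ to 3′, with capitals for a match to CANNTG (the E-box bound by basic helix-loop-helix factors), TAATTA (a homeodomain core) or TATATAA, searched on both strands. TATATAA was added to the search after the sequences had been read. For *Eomes* that start lies 3 bases inside the gene span given above, so the last 3 bases of its line fall within the span.
Eomes (chr9:118477939-118478188, plus strand): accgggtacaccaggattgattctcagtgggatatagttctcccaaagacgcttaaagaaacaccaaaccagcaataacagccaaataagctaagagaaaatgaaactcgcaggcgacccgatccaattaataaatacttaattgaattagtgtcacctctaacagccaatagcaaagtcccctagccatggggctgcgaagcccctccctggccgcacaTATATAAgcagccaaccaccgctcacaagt
Emx1 (chr6:85187681-85187930, plus strand): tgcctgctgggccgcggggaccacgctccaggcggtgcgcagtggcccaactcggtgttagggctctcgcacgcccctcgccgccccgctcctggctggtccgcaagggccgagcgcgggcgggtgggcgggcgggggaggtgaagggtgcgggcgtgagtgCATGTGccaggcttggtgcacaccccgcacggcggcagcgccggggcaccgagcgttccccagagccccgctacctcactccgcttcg
Emx2 (chr19:59458440-59458689, plus strand): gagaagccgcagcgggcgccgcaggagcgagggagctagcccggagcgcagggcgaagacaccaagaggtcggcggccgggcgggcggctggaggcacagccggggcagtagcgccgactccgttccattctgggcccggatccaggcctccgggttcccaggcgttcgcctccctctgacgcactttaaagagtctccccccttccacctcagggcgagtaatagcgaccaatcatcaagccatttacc

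The *Eomes* window had 46.4% G or C and 8 CpG dinucleotides, against 75.6% and 30 for *Emx1* and 67.2% and 24 for *Emx2*. The median of all 32851 promoter windows of this length in the table was 52.4% and 6 CpG. The *Eomes* window held TATATAA starting 30 bases before the start in the promoter table, on the strand of the gene, and 3.04% of all windows held this motif. It held no CANNTG, a motif in 66.2% of all windows, while *Emx1* held 1, CATGTG, and *Emx2* none. TAATTA, in 4.84% of all windows, was found in none of the 3. These are matches of letters and say nothing about binding.

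The tables list 9049 barcodes for replicate 1 and 13556 for replicate 2, with totals of 46398156 and 64324236 UMIs. The cells kept for analysis numbered 5534 and 9136, at median depths of 5493 and 4728 UMIs. The libraries shared 40 barcodes, 15 of them among the cells kept. The cells fell into 27 clusters, of which 22 were named from marker genes and 5, with 1116 and 1824 cells, were not. None of the 6 genes and none of 20 companion genes, other transcription factors of the same lineage entered the clustering or the naming. A class is therefore called X-like by other markers, and genes that vary together with those markers can still follow the class. The labelled tissue was checked against these markers: besides the pallial classes, the dissections held GABAergic progenitors, interneurons, striatal projection neurons, vascular cells, microglia and erythroid cells, all in both libraries.

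RGC-like cells numbered 313 and 580 in replicates 1 and 2, with medians of 7628 and 4996 UMIs. IPC-like cells numbered 289 and 466, with medians of 8520 and 6852 UMIs. Newborn excitatory neuron-like cells numbered 1033 and 1737, upper-layer neuron-like cells 365 and 645, and deep-layer neuron-like cells 269 and 308. All 12 radial glial markers were detected in the RGC-like class, where their summed level was 25370 and 25798 CPM (the UMIs of a gene scaled to a common total of UMIs in the class), against 3613 and 3210 in the IPC-like class. The 13 IPC markers, which do not include *Eomes*, summed to 1988 and 1787 CPM in IPC-like cells and to 630.1 and 534 CPM in RGC-like cells. They also summed to 1511 and 1576 CPM in GABAergic progenitor-like cells, which the 6 GABAergic progenitor markers set apart with 1471 and 1386 CPM against 70.9 and 50.8 CPM in IPC-like cells. At least 1 UMI of *Gsx1*, *Gsx2*, *Dlx1*, *Dlx2* or *Sp9*, genes of the subpallium, was found in 19.5% and 14.3% of RGC-like cells and in 7.96% and 9.87% of IPC-like cells, against 94.6% and 91.9% of GABAergic progenitor-like cells. When the RGC-like and IPC-like cells with such a UMI were left out, which was tried after seeing the data, all 42 calls on the 6 genes between classes stood as they were.

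Over all cells of a class, *Pax6* was highest in RGC-like cells and fell along the lineage. It stood at 245 and 240.2 CPM in the RGC-like cells of replicates 1 and 2, at 186 and 179 CPM in IPC-like cells and at 20.8 and 22.6 CPM in newborn neuron-like cells. The first of these steps was small. Among cells scored as G1 phase, the RGC-like level of 150.1 and 187 CPM overlapped with the IPC-like level of 173 and 161 CPM. The upper-layer class had 3.1 and 4.14 CPM and the deep-layer class 2.55 and 4.18 CPM, which overlap with each other and with the 3.71 and 5.45 CPM of non-neural cells (endothelial, pericyte, fibroblast and microglial), the level taken here as background. Erythroid cells, which should also lack these genes, had 6.68 and 14.3 CPM. *Pax6* was also present in cells of subpallial origin, with 87.3 and 81.9 CPM in GABAergic progenitor-like cells, 78.7 and 55 CPM in interneuron-like cells of the caudal ganglionic eminence (CGE) and 52.8 and 51.6 CPM in *Meis2* interneuron-like cells, while interneuron-like cells of the medial ganglionic eminence (MGE) had 4.66 and 4.32 CPM. The antisense gene *Pax6os1*, counted as its own feature, followed the order of *Pax6* from RGC-like to newborn neuron-like cells at a lower count. It had 14.1 and 18.4 CPM in RGC-like cells (37 and 64 UMIs), 10.2 and 7.39 CPM in IPC-like cells (26 and 24 UMIs) and 1 and 8 UMIs in newborn neuron-like cells. In GABAergic progenitor-like cells it did not follow *Pax6*, with 2 UMIs in each library.

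*Eomes* marked IPC-like cells. It rose from 37.8 and 23.6 CPM in RGC-like cells to 614.4 and 576.1 CPM in IPC-like cells, and stood at 39.5 and 36.1 CPM in newborn neuron-like cells. The newborn class held 2 clusters, and *Eomes* was 82.9 and 80.7 CPM in the cluster led by the axon guidance genes *Unc5d* and *Sema3c* but 0.757 and 1.14 CPM in the other. The upper-layer level of 1.94 and 1.38 CPM overlapped with the 1.48 and 2.48 CPM of non-neural cells, and the deep-layer level of 0.51 and 1.39 CPM lay below it. In Cajal-Retzius-like cells the libraries did not repeat each other, with 11 UMIs in the 24 cells of replicate 1 and 1 UMI in the 34 cells of replicate 2.

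*Insm1* was shared by both progenitor lineages. It was 50 and 39.5 CPM in RGC-like cells, 164 and 158 CPM in IPC-like cells and 110 and 97.7 CPM in newborn neuron-like cells. Upper-layer neuron-like cells had 33.7 and 19.1 CPM and deep-layer neuron-like cells 13.8 and 12.1 CPM. The GABAergic progenitor-like class, of which 97.7% and 98.5% of cells scored in S or G2M phase, had 169 and 138 CPM, a range that contains the values of IPC-like cells.

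*Emx1* and *Emx2* differed in where they peaked. *Emx1* was 28.2 and 24.8 CPM in RGC-like cells, rose to 95.9 and 98.8 CPM in IPC-like cells and then stepped down through 64.2 and 59.2 CPM in newborn, 42.3 and 32.2 CPM in upper-layer and 21.4 and 20 CPM in deep-layer neuron-like cells, with no overlap between neighbours in this order. *Emx2* was 49.6 and 55.3 CPM in RGC-like cells, 47 and 40.3 CPM in IPC-like cells and 28.8 and 26.1 CPM in newborn neuron-like cells, and reached 7.37 and 7.13 CPM in upper-layer and 1.02 and 1.86 CPM in deep-layer neuron-like cells. The upper-layer level lay within the 3.34 and 8.95 CPM of erythroid cells, and so was not separable from background. The deep-layer level overlapped with the 1.48 and 1.98 CPM of non-neural cells. The highest class of *Emx2* lay outside this lineage: Cajal-Retzius-like cells, early-born neurons of the marginal zone, had 238 and 292 CPM, from 39 UMIs in 24 cells and 94 UMIs in 34 cells. There *Emx1* had 1 and 2 UMIs, and *Emx2os*, the antisense neighbour of *Emx2*, had 85.3 and 102.6 CPM against 11.1 and 14.7 CPM in RGC-like cells.

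*Lhx2* was high in progenitors and stayed high in upper-layer neurons. The RGC-like level was 226 and 180 CPM, the IPC-like level 423 and 362 CPM and the newborn level 334 and 303 CPM. Upper-layer neuron-like cells had 224 and 252 CPM, which overlaps with RGC-like cells, and deep-layer neuron-like cells had 14.8 and 19.5 CPM, above the 8.16 and 13.4 CPM of non-neural cells but below the 28.4 and 29.5 CPM of erythroid cells, and so not separable from background. Cajal-Retzius-like cells had 116 and 106 CPM and GABAergic progenitor-like cells 47.1 and 55 CPM.

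**Figure D1:**
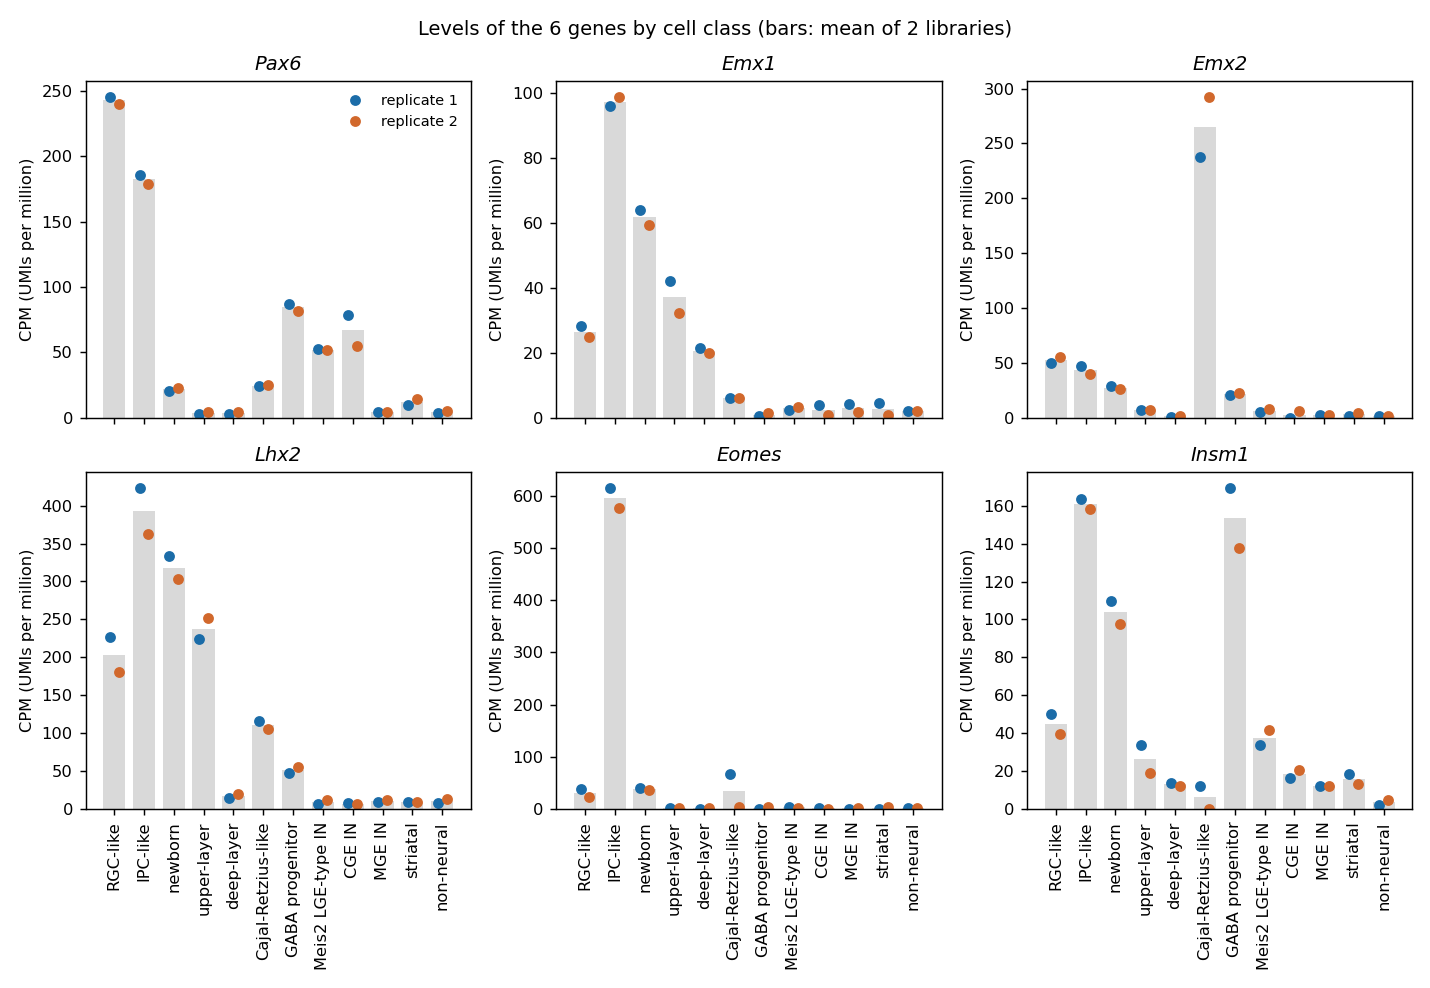
Level of each of the 6 genes (vertical axis, CPM from 0) in 12 cell classes (horizontal axis, IN for interneuron), with a point for each library and a grey bar for the mean of the 2 libraries. *Eomes* stands out in IPC-like cells at 614.4 and 576.1 CPM, *Emx2* in Cajal-Retzius-like cells at 238 and 292 CPM, and *Insm1* is about as high in GABAergic progenitor-like as in IPC-like cells.

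The step from RGC-like to IPC-like cells was tested on UMI sums with the quasi-likelihood test of edgeR, and log2 fold changes are given with their standard error (SE) and a p-value adjusted after Benjamini and Hochberg across the 15156 tested genes. A call is an adjusted p under 0.05. Between IPC-like and RGC-like cells, 32.2% of all genes were called, 13.3% higher and 19.0% lower, and 5 of the 6 genes were called, 4 higher and 1 lower in IPC-like cells. *Eomes* was higher by 4.35 ± 0.180 on the log2 scale (adjusted p = 1.30e-22), *Emx1* by 1.93 ± 0.166 (adjusted p = 7.85e-13), *Insm1* by 1.90 ± 0.149 (adjusted p = 4.94e-14) and *Lhx2* by 0.99 ± 0.123 (adjusted p = 1.09e-08). *Pax6* fell by 0.37 ± 0.110 (adjusted p = 0.00727), and *Emx2* was not called, at -0.23 ± 0.169 (adjusted p = 0.315). Within G1 the *Pax6* levels of the classes overlapped, and the part of cycle phase in the fall of *Pax6* was not tested. A *Pax6* UMI was found in 66.8% and 53.8% of RGC-like and in 66.1% and 57.7% of IPC-like cells. The median absolute change of all genes was 0.46. The call on *Pax6* was lost when doublets were kept (adjusted p = 0.208), when the members and companions entered the clustering (0.0637), without regression of the cycle scores (0.110) and when clusters and sums came from separate random portions of the UMIs (0.699).

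Of the 20 companion genes, 18 had enough counts to be tested, and 11 were higher and 6 lower in IPC-like than in RGC-like cells. The factors that moved most were the neuronal bHLH genes *Neurod4* and *Neurod1* and the Notch target *Hes5*. *Neurod4* had 82 and 71 UMIs in IPC-like cells and 0 UMIs in RGC-like cells of both libraries. *Neurod1* had 125 and 115 CPM in IPC-like cells, and 0 and 12 UMIs in RGC-like cells. *Hes5* went the other way, from 162 and 182 CPM in RGC-like to 10.6 and 7.39 CPM in IPC-like cells (log2 fold change -4.25 ± 0.213, adjusted p = 3.47e-20 with edgeR).

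From IPC-like to newborn neuron-like cells, 36.9% of all genes were called, 21.1% higher and 15.8% lower, and 5 of the 6 genes fell. *Eomes* fell by 3.82 ± 0.155 on the log2 scale and *Pax6* by 2.91 ± 0.126, while *Emx1* fell by 0.51 ± 0.131, *Emx2* by 0.51 ± 0.163 and *Insm1* by 0.49 ± 0.123. *Lhx2* was not called, at -0.15 ± 0.115 (edgeR adjusted p = 0.341), but was called lower, at -0.25 to -0.33, in 3 alternatives. The median change of all genes was 0.11, so that the small falls are slightly larger relative to it. When doublets were kept, the change of *Insm1* shrank to -0.07 (adjusted p = 0.762), and *Emx2* was no longer called although its change stayed at -0.50 (adjusted p = 0.0576). With DESeq2, *Emx1* and *Emx2* were not called, at -0.59 for each gene (adjusted p = 0.0566 and 0.141). Among the companions, *Neurod4* and *Tfap2c*, an AP-2 factor of progenitors, fell.

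In the laminar neuron classes, taken as the mean of upper-layer and deep-layer neuron-like cells on the log scale, all 6 genes were lower than in IPC-like cells, where 54.5% of all genes were called, 29.4% higher and 25.1% lower. The log2 fold changes were -8.66 ± 0.229 for *Eomes*, -5.48 ± 0.168 for *Pax6*, -3.55 ± 0.257 for *Emx2*, -2.99 ± 0.146 for *Insm1*, -2.44 ± 0.126 for *Lhx2* and -1.66 ± 0.142 for *Emx1*. Against RGC-like cells, where 61.0% of all genes were called, 30.7% higher and 30.3% lower, 5 of the 6 genes were lower in this mean and *Emx1* was not called, at 0.27 ± 0.181 (edgeR adjusted p = 0.206), whereas *Pax6* fell by 5.85 ± 0.161. For *Lhx2*, at -1.44 ± 0.136, the fall belongs to the mean and not to both classes: upper-layer neuron-like cells overlapped with RGC-like cells, and deep-layer neuron-like cells alone lay lower, at 14.8 and 19.5 CPM. In replicate 1 alone, the log2 ratio of CPM of *Eomes* was -9.27 against IPC-like and -5.25 against RGC-like cells, where the edgeR value was -4.31. That of *Pax6* against RGC-like cells was -6.45. These ratios are not normalised as the edgeR values are, so the measure changed as well as the library. *Eomes* had 1 UMI in the deep-layer neuron-like cells of replicate 1. *Emx1* was called higher in neurons without regression of the cycle scores (0.47) and with separate portions of the UMIs for clusters and sums (0.56). *Insm1* fell by 1.09 ± 0.180, but was not called with the members and companions in the clustering (-0.30, adjusted p = 0.157) or without regression of the cycle scores (-0.39, adjusted p = 0.0600). The companions with the largest changes against IPC-like cells were *Neurod4*, *Nr2e1* and *Neurog2*, and *Neurog2*, a proneural factor, went from 509 and 508 CPM to 5.04 and 5.75 CPM in upper-layer and 1.53 and 2.32 CPM in deep-layer neuron-like cells. Against RGC-like cells they were *Nr2e1*, *Gli3* and *Hes5*, all lower in neurons.

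Between the laminar classes, 13.2% of all genes were called, 6.04% higher and 7.12% lower in upper-layer neuron-like cells, and 4 of the 6 genes were higher. *Lhx2* was higher by 3.79 ± 0.189 (adjusted p = 4.15e-20), *Emx2* by 2.26 ± 0.567 (adjusted p = 0.00354), *Insm1* by 0.97 ± 0.264 (adjusted p = 0.00791) and *Emx1* by 0.83 ± 0.216 (adjusted p = 0.00521). *Pax6* and *Eomes*, both near background in neurons, did not pass the test (adjusted p = 0.921 and 0.789). The *Emx2* value rests on 2 and 4 UMIs in deep-layer neuron-like cells and was 2.85 without replicate 2. When clusters and sums came from separate random portions of the UMIs, *Lhx2* alone was called, with *Emx2* at 2.14 (adjusted p = 0.0544), *Emx1* at 0.57 and *Insm1* at 0.17. *Emx2* was also not called when doublets were kept (0.94, adjusted p = 0.144). The call on *Emx1* was lost with a mitochondrial limit of 5% (0.74, adjusted p = 0.101) and with DESeq2 (0.77, adjusted p = 0.0771), at differences close to the one above. For comparison, the deep-layer factors *Bcl11b* and *Tbr1* differed by -4.99 ± 0.230 and -0.72 ± 0.145.

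**Figure D2:**
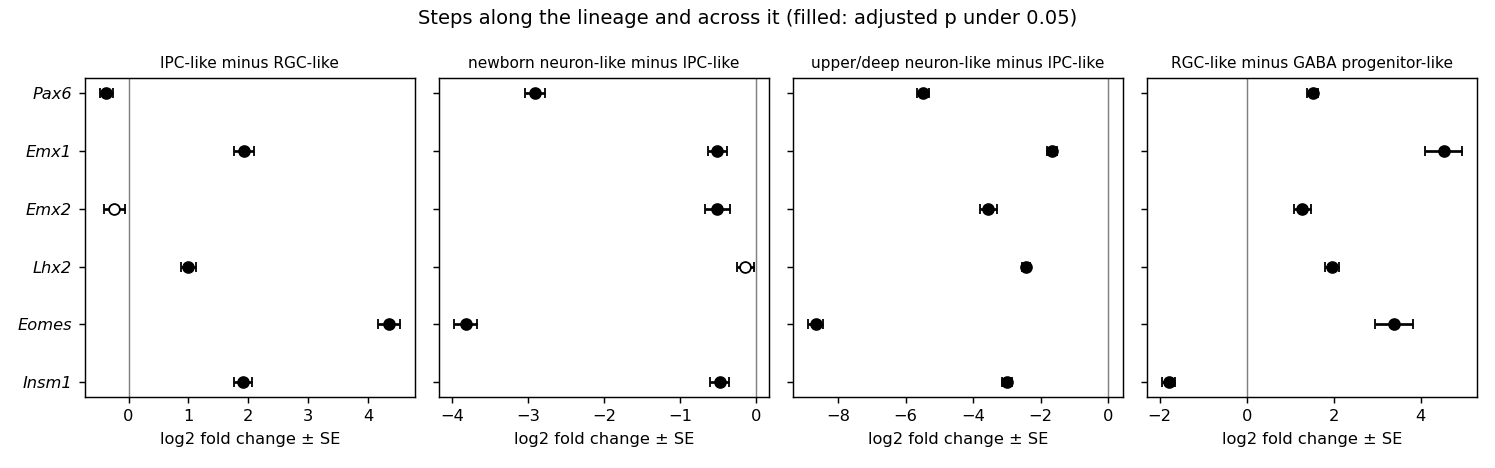
Log2 fold change (horizontal axis) with SE from edgeR for each gene (vertical axis) in 4 comparisons between classes. Filled points had an adjusted p under 0.05, and the open points are *Emx2* from RGC-like to IPC-like cells and *Lhx2* from IPC-like to newborn neuron-like cells. *Eomes* has the largest step into IPC-like cells, 4.35, and *Insm1* is the gene that is lower in RGC-like than in GABAergic progenitor-like cells.

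RGC-like cells were next set against the GABAergic progenitor-like cells of the subpallium. These are not a matched stage: the 12 radial glial markers summed to 2478 and 2944 CPM in GABAergic progenitor-like cells, under the 3613 and 3210 CPM of IPC-like cells and far under the 25370 and 25798 CPM of RGC-like cells, and the 13 IPC markers to 1511 and 1576 CPM, against 630.1 and 534 CPM in RGC-like cells. Region and stage of progenitor cannot be told apart in the differences that follow. Between RGC-like and GABAergic progenitor-like cells, 36.9% of all genes were called, 19.7% with the higher level in RGC-like cells and 17.2% with the lower, and all 6 genes were, 5 of them higher. *Emx1* was higher in RGC-like cells by 4.52 ± 0.434, *Lhx2* by 1.95 ± 0.154, *Pax6* by 1.51 ± 0.123 and *Emx2* by 1.28 ± 0.201, and *Insm1* fell by 1.79 ± 0.153, being higher in GABAergic progenitor-like cells in both libraries. *Emx1* was nearly absent from GABAergic progenitor-like cells, with 1 UMI in 261 cells and 4 UMIs in 458 cells, and its log2 ratios were 5.72 and 4.13 in replicates 1 and 2. It was 1.60 with doublets kept and 2.89 without regression of the cycle scores, and was called in both. *Eomes* was higher in RGC-like cells by 3.38 ± 0.427, but this rests on 1 UMI in the GABAergic progenitor-like cells of replicate 1 and 12 UMIs in those of replicate 2, with log2 ratios of 6.14 and 2.47. Its call was lost with the members and companions in the clustering (adjusted p = 0.210), without regression of the cycle scores (0.649) and with separate portions of the UMIs for clusters and sums (0.0773). RGC-like cells had 60.7% and 57.2% of cells in S or G2M phase against 97.7% and 98.5% of GABAergic progenitor-like cells, and the part of this gap in the differences was not tested. The companions *Tfap2c* and *Hes1* were higher in RGC-like cells by 5.81 ± 0.489 and 3.33 ± 0.215, and *Bcl11b* was lower by 3.62 ± 0.259.

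Between the laminar excitatory neuron-like classes and MGE interneuron-like cells, 30.3% of all genes were called, 14.7% higher and 15.7% lower in excitatory neurons, and 2 of the 6 genes were higher. *Emx1* was higher in the mean of the excitatory classes by 3.31 ± 0.308 and *Lhx2* by 2.60 ± 0.232. The *Lhx2* value averages unlike classes, with 224 and 252 CPM in upper-layer and 14.8 and 19.5 CPM in deep-layer neuron-like cells against 8.9 and 12.1 CPM in MGE interneuron-like cells, and the deep-layer level was not separable from background. The other genes, *Pax6*, *Emx2*, *Eomes* and *Insm1*, had edgeR adjusted p-values of 0.625, 0.578, 0.659 and 0.0668. Without the removal of doublets, with the members in the clustering or without regression of the cycle scores, *Insm1* was called higher in excitatory neurons, at 0.62 to 0.69. Of the companions, *Neurod2* was higher in excitatory neurons by 4.63 ± 0.198 and *Sox2*, which MGE interneuron-like cells still carried at 169 and 150 CPM, was lower by 4.90 ± 0.179.

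Single cells showed how far the genes of the cascade were detected together. In IPC-like cells, at least 1 UMI of *Pax6* and of *Eomes* was found in the same cell in 173 of 289 cells (59.9%) of replicate 1 and in 240 of 466 cells (51.5%) of replicate 2. *Pax6* without *Eomes* made up 6.23% and 6.22% of IPC-like cells, and *Eomes* without *Pax6* 29.8% and 36.5%. In RGC-like cells, both were found in 7.03% and 4.14%, *Pax6* alone in 59.7% and 49.7% and *Eomes* alone in 0.639% and 1.72%. In non-neural cells, where neither gene is expected, 0.73% and 0.386% held both, with 2.92% and 3.09% holding *Pax6* alone. Shares of cells depend on depth, and after each cell was thinned to 1500 UMIs, both genes were found in 13.1% and 12.7% of IPC-like cells, in 0.319% and 1.21% of RGC-like cells and in 0% of non-neural cells.

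The share of cells with both genes was set beside the share expected if they were detected independently within bins of cells of like depth, as a description with no test. For *Pax6* and *Eomes* in IPC-like cells, the observed share was 0.997 to 1.003 times the expected one. In newborn neuron-like cells it was 2.77 to 2.94 times the expected share, with both genes in 3.67% of cells on average against 1.30%, and 3.01 to 4.28 times after thinning, from 6 and 8 cells. The *Pax6* and *Eomes* UMIs of newborn neurons thus lay in the same cells more often than their single shares give. The higher cluster for both was again the one led by *Unc5d* and *Sema3c*, with *Pax6* at 35 and 41.4 CPM against 8.07 and 7.76 CPM in the other.

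In RGC-like cells the pair that stood out was *Eomes* and *Insm1*. They were found together in 4.61% of cells on average, against 1.42% expected, a ratio of 2.97 to 3.77 in the libraries. This rests on 17 of 313 and 22 of 580 cells. *Emx1* and *Eomes* had a ratio of 1.64 to 2.57, and *Emx2* and *Eomes* lay below the expected share, at 0.67 to 0.83. After thinning, under 1 cell was expected to hold both genes for *Eomes* with *Insm1*, *Emx1* or *Emx2* in replicate 1, and only 5 and 4, 0 and 2, and 1 and 1 cells in replicates 1 and 2 did, too few for a reading of any of these pairs. In IPC-like cells the ratios of all 15 pairs ran from 0.95 to 1.16 with all UMIs, from 0.745 to 1.84 after thinning and from 0.714 to 1.40 with at least 2 UMIs of each gene.

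**Figure D3:**
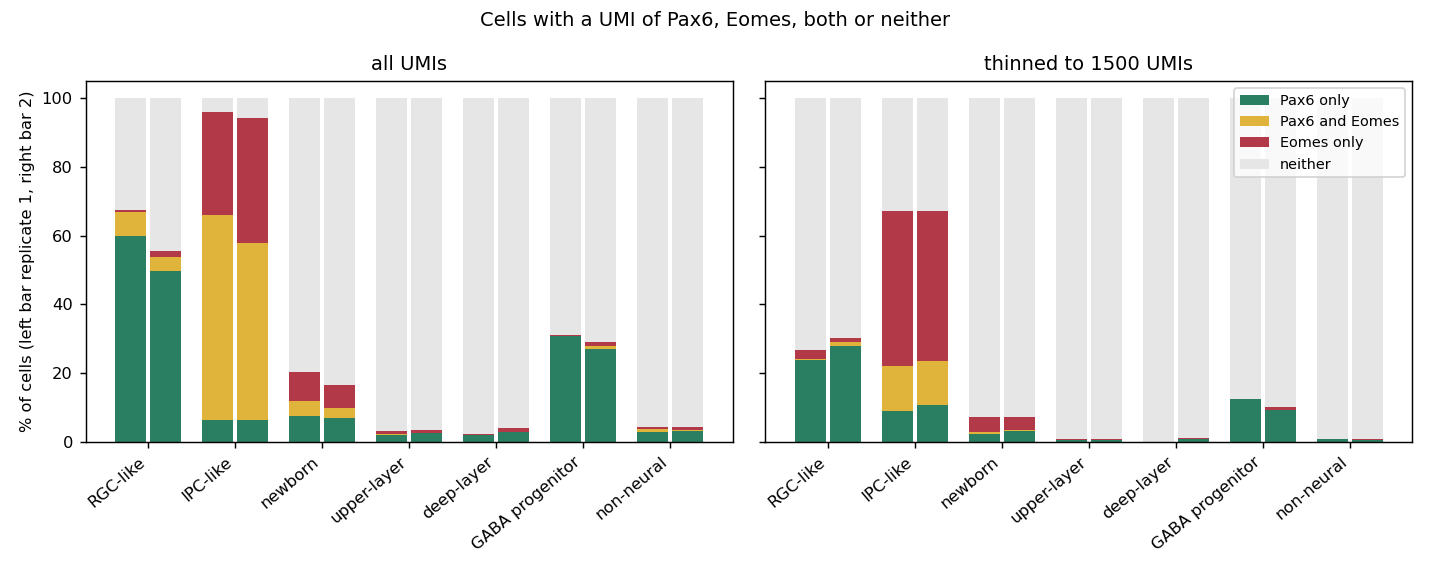
Share of cells (vertical axis, %) with a UMI of *Pax6*, of *Eomes*, of both or of neither in 7 classes, with the left bar of each pair for replicate 1 and the right for replicate 2. With all UMIs (left panel) the cells with both genes are 59.9% and 51.5% of IPC-like cells, and with each cell thinned to 1500 UMIs (right panel) 13.1% and 12.7%.

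The number of the 6 genes seen in a cell was greatest in IPC-like cells. They had a mean of 3.74 and 3.43 genes per cell in replicates 1 and 2, against 2.09 and 1.63 in RGC-like, 2.03 and 1.64 in newborn, 1.19 and 1.03 in upper-layer and 0.335 and 0.38 in deep-layer neuron-like cells. Non-neural cells had 0.139 and 0.17. With each cell thinned to 1500 UMIs the means were 1.66 and 1.57 in IPC-like, 0.661 and 0.671 in RGC-like and 0.726 and 0.657 in newborn neuron-like cells, so the order of the first class stood and the next 2 classes overlapped. All 6 genes were detected in 24 and 20 IPC-like cells, and in 3 and 1 RGC-like cells.

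The RGC-like and IPC-like cells were then pooled and split by their *Pax6* and *Eomes* UMIs, and the other genes were compared between the states. *Pax6* and *Eomes* define the states and are no result here. There were 205 and 317 Pax6+Eomes- cells, 195 and 264 Pax6+Eomes+ cells and 88 and 180 Pax6-Eomes+ cells, of which 8.78% and 9.15%, 88.7% and 90.9%, and 97.7% and 94.4% were IPC-like. Median depths were 8708 and 5577 UMIs, 9682 and 7734 UMIs, and 7586 and 6457 UMIs. Another 114 and 285 cells, with medians of 4757 and 3899 UMIs, held a UMI of neither gene and entered no contrast. Given the shares of IPC-like cells, the first contrast is close to the one between the classes.

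*Insm1* peaked in Pax6+Eomes+ cells. It was 49.2 and 47.3 CPM in Pax6+Eomes- cells, 198 and 185 CPM in Pax6+Eomes+ cells and 93.3 and 109 CPM in Pax6-Eomes+ cells, with no overlap between these states. Cells with neither gene had 16.8 and 29.6 CPM of *Insm1*. From Pax6+Eomes- to Pax6+Eomes+ cells, where 33.9% of all genes were called, 15.7% higher and 18.2% lower, *Insm1* rose by 2.06 ± 0.143, *Emx1* by 1.64 ± 0.164 and *Lhx2* by 0.83 ± 0.0924, and *Emx2* was not called (-0.21 ± 0.156, edgeR adjusted p = 0.322). Against Pax6-Eomes+ cells, where 4.57% of all genes were called, 2.35% higher and 2.22% lower, *Insm1* was the only one of the 4 genes called, higher in Pax6+Eomes+ cells by 0.87 ± 0.148 (adjusted p = 0.000736). This call was lost when the states were taken from cells thinned to 1500 UMIs (0.48, adjusted p = 0.340) and when clusters and sums came from separate portions of the UMIs (0.58, adjusted p = 0.191).

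*Emx1* and *Lhx2* overlapped between both *Eomes* states, with 88.4 and 99.7 CPM of *Emx1* in Pax6+Eomes+ cells against 115 and 96.2 CPM in Pax6-Eomes+ cells, and 415 and 358 CPM of *Lhx2* against 429 and 362 CPM. The differences were -0.17 ± 0.158 and -0.05 ± 0.0959 (edgeR adjusted p = 0.690 and 0.856). *Emx2* was 48.3 and 46.5 CPM in Pax6+Eomes+ cells and 32.7 CPM in the Pax6-Eomes+ cells of both libraries, a difference of 0.51 ± 0.211 that did not pass the test (edgeR adjusted p = 0.214). Of the companions, *Neurog2* was 582 and 583 CPM in Pax6+Eomes+ cells, against 50.8 and 37.4 CPM in Pax6+Eomes- cells and 336 and 427 CPM in Pax6-Eomes+ cells. From Pax6+Eomes- to Pax6+Eomes+ cells, *Neurod4* rose by 5.12 ± 0.539 and *Neurod1* by 4.63 ± 0.296. Pax6+Eomes- cells held 0 and 3 UMIs of *Neurod4* and 2 and 12 UMIs of *Neurod1*. *Neurod1* was lower in Pax6+Eomes+ than in Pax6-Eomes+ cells (94.5 and 76.2 CPM against 187 and 164 CPM, log2 fold change -1.06 ± 0.169, edgeR adjusted p = 0.000395), and the progenitor factors *Sox2* and *Nr2e1* were higher, by 1.01 ± 0.154 and 1.08 ± 0.246. The share scoring as S or G2M was 30.8% and 34.8% in Pax6+Eomes+ and 17.0% and 28.3% in Pax6-Eomes+ cells, and its part in these differences was not tested.

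**Figure D4:**
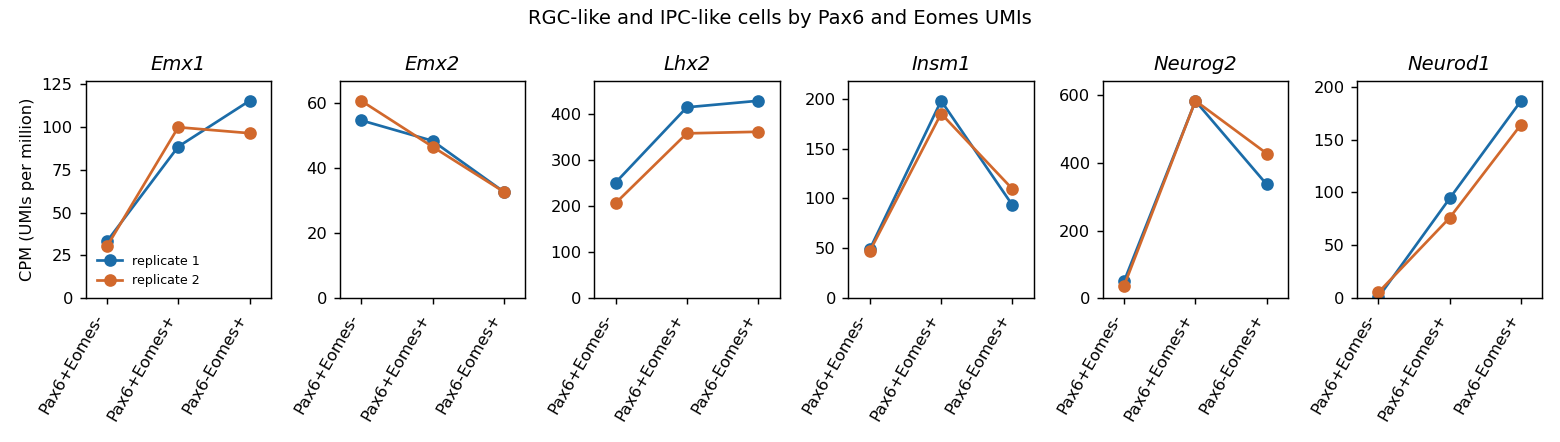
Level (vertical axis, CPM from 0) of 4 of the genes and of the companions *Neurog2* and *Neurod1* in RGC-like and IPC-like cells split by *Pax6* and *Eomes* UMIs (horizontal axis), with a line for each library. *Insm1* peaks in Pax6+Eomes+ cells at 198 and 185 CPM, and *Neurod1* is highest in Pax6-Eomes+ cells at 187 and 164 CPM.

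IPC-like cells were then compared by the phase of the cell cycle, which was called from scores over lists of 43 S and 54 G2M genes alone. Such calls also fell on classes of neurons, which do not divide: 7.4% and 8.22% of upper-layer neuron-like, 10.5% and 15.3% of striatal projection neuron-like and 16.3% and 24.4% of MGE interneuron-like cells scored as S or G2M. In the larger of the 2 IPC-like clusters the share was 14.6% and 15.4%, within that range, so S or G2M phase stands here for the score and not for cells shown to cycle. The cells in S or G2M phase numbered 84 and 165 and those in G1 205 and 301, and 33.3% of 10322 genes were called between them, 18.6% higher and 14.7% lower in S or G2M phase. *Insm1* was 272 and 261 CPM in S or G2M phase against 107 and 90.7 CPM in G1, higher by 1.48 ± 0.118 (adjusted p = 5.31e-34). *Eomes* was lower, at 372 and 393 CPM against 741 and 696 CPM (-0.86 ± 0.0751, adjusted p = 1.27e-28), and so was *Emx1*, at 53.8 and 75.4 CPM against 118 and 114 CPM (-0.78 ± 0.162, adjusted p = 1.50e-05). *Lhx2* fell by 0.26 ± 0.0846, *Pax6* rose by 0.37 ± 0.113 and *Emx2* was not called (0.21 ± 0.217, edgeR adjusted p = 0.490). The calls on *Pax6* and *Lhx2* were lost in several alternatives, with separate portions of the UMIs at 0.16 and -0.14, and that on *Emx1* with DESeq2 (-0.81, adjusted p = 0.157) and with doublets kept (-0.70, adjusted p = 0.409). Among the companions, *Neurod1* and *Tbr1* were lower and *Hes1*, a Notch target of progenitors with 10.2 and 4.001 CPM over all IPC-like cells, was higher in S or G2M phase.

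The IPC-like class held a cluster in which all 49 and 110 cells scored as S or G2M, and the values followed it. *Insm1* was 320 and 284 CPM in this cluster against 114 and 106 CPM in the other, and *Eomes* 290 and 343 CPM against 717 and 673 CPM. When doublets were kept, the IPC-like class was a single cluster of 215 and 311 cells and none of the 6 genes was called with edgeR. In that setting 3 genes had an unadjusted p under 0.05 and DESeq2 called 0, with *Insm1* at 0.74 (adjusted p = 0.147) and *Eomes* at -0.07 (adjusted p = 0.945).

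In RGC-like cells, 190 and 332 cells scored in S or G2M phase and 123 and 248 in G1, and 25.1% of 11070 genes were called, 12.9% higher and 12.1% lower in S or G2M phase. *Pax6* was 297 and 278 CPM in S or G2M phase against 150.1 and 187 CPM in G1, higher by 0.75 ± 0.109 (adjusted p = 2.22e-09). *Lhx2* was higher by 0.52 ± 0.113 and *Emx2* by 0.53 ± 0.186, and *Emx1* was not called (0.61 ± 0.270, edgeR adjusted p = 0.0884). *Eomes* and *Insm1* were lower by 2.15 ± 0.254 and 0.70 ± 0.197, but replicate 1 carried most of this: *Eomes* was 10 and 15.3 CPM in S or G2M phase against 88.5 and 35.4 CPM in G1, and *Insm1* 33.6 and 37.4 CPM against 79.9 and 42.3 CPM. The *Eomes* value was -1.21 without replicate 1 and -3.14 without replicate 2. Of the companions, *Neurog2* was lower in S or G2M phase, at 24.8 and 28.6 CPM against 125 and 66.6 CPM in G1 (log2 fold change -1.76 ± 0.187, edgeR adjusted p = 1.96e-15). *Dmrta2* and *Tfap2c* were higher, by 0.74 ± 0.220 and 0.74 ± 0.191. Both directions, of *Eomes* and of *Insm1*, changed in alternatives. *Insm1* was called higher in S or G2M phase without regression of the cycle scores (0.99, adjusted p = 0.00345) and with separate portions of the UMIs (1.30, adjusted p = 0.00421), and was at 0.60 but not called with the members and companions in the clustering (adjusted p = 0.0985). *Eomes* was not called in any of these settings, at -0.60 without regression (adjusted p = 0.427), 0.71 with separate portions (0.479) and -0.57 with the members and companions in the clustering (0.467). Without the library as a block, *Insm1* and *Emx2* were not called, at -0.71 and 0.52 (adjusted p = 0.0594 and 0.0585). *Insm1* was also not called with doublets kept (-0.50, adjusted p = 0.0544), nor *Emx2* with separate portions (0.48, adjusted p = 0.241). With DESeq2, *Emx2*, *Lhx2* and *Insm1* were not called, at 0.54, 0.53 and -0.70. *Emx1* was called higher, at 1.28 to 1.85, in the 3 settings that changed the direction of *Insm1*.

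The difference between the phase effects of the 2 classes was tested directly, and 2.79% of 11692 genes were called. *Emx1* and *Lhx2* differed, with an effect of S or G2M phase in RGC-like cells that exceeded the one in IPC-like cells by 1.45 ± 0.301 (adjusted p = 0.00918) and 0.85 ± 0.139 (adjusted p = 0.00141). *Insm1* differed in the other direction, by -2.12 ± 0.261 (adjusted p = 8.76e-05), but this call was lost in 4 settings, with -1.12 with doublets kept, -0.57 with the members and companions in the clustering, -0.24 without regression of the cycle scores and 0.37 with separate portions of the UMIs. *Pax6*, *Emx2* and *Eomes* had adjusted p-values of 0.155, 0.599 and 0.0784. *Pax6* was called in 4 alternatives and *Eomes* in 2, and *Emx1* was not called with DESeq2 (1.43, adjusted p = 0.0821).

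**Figure D5:**
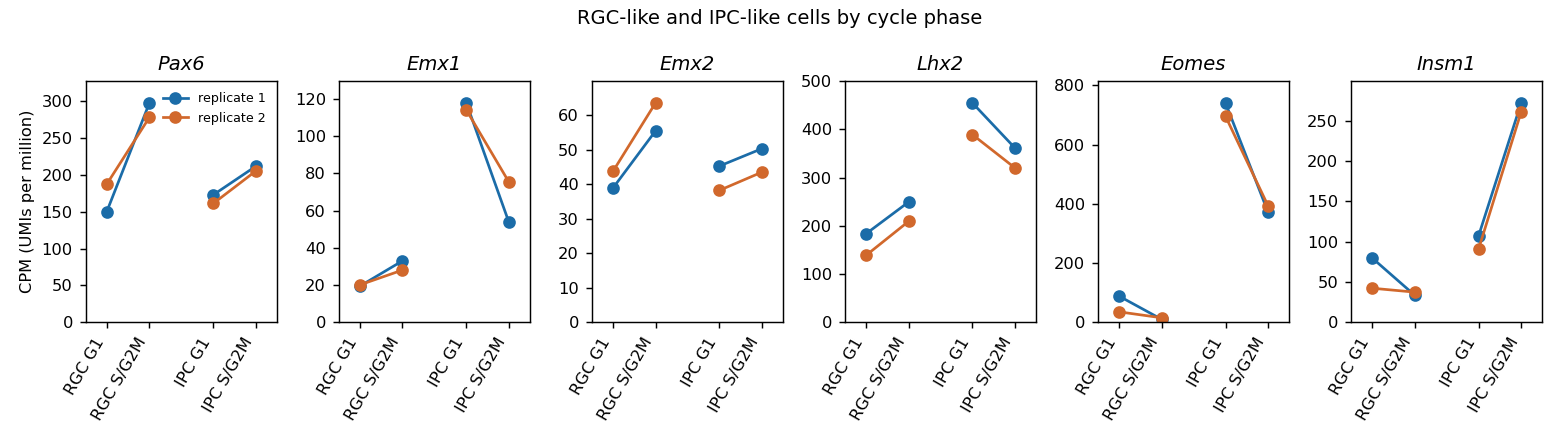
Level (vertical axis, CPM from 0) of each gene in G1 and in S or G2M phase (horizontal axis) of RGC-like cells (left line of each panel) and IPC-like cells (right line), with a line for each library. In IPC-like cells *Insm1* is higher in S or G2M phase, at 272 and 261 CPM against 107 and 90.7 CPM, and *Eomes* is lower.

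The genes whose level over the 16 classes in the fit was most like that of each gene were taken from 13848 genes with at least 10 CPM in a class, by Pearson's r of log2(CPM + 1), a description with no test over classes that share libraries. For *Pax6* they were *Btbd17* (r = 0.90), *Sap30* and *AW047730* (both 0.84). For *Emx1* they were *Masp1* (0.86), *Id2* and *Neurod1* (both 0.85), and for *Emx2* *Thrsp*, *Dmrta2* (both 0.92) and *Gca* (0.90). *Lhx2* was most like *Gm13584* (0.90), *Wwc1* (0.89) and *Mmd2* (0.84), *Eomes* most like *Dmrta2* (0.90), *Ppp1r3g* (0.87) and *AA387883* (0.86), and *Insm1* most like *Cdkn1b* (0.92), *Pantr1* (0.92) and *Hes6* (0.92). Among the 6 genes themselves, *Emx1* and *Lhx2* were the closest pair (0.84) and *Pax6* and *Emx1* the least alike (0.32). *Emx1* and *Emx2* stood at 0.41.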

How the data were processed

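Single-cell RNA from 2 libraries was analysed. Per the labels and the file headers, the authors used Cell Ranger on mm10 (version 7.0.0 in the submitters' processing notes, 7.1.0 in the file headers) and deposited UMI counts per gene and cell, not normalised. Cells with 1500 to 60000 UMIs and under 10% mitochondrial UMIs were kept (5966 and 10247), and the cells with the highest Scrublet scores, a share set from the number of barcodes, were removed as doublets (432 and 1111), since the automatic threshold marked 0 and 251. Cells were clustered with scanpy 1.11.5 and leidenalg 0.10.2 (2000 variable genes, 30 components, 20 neighbours, resolution 1), with S and G2M scores regressed and 26 genes left out, the 6 members and 20 companions. A cluster was named from at least 3 markers, each in at least 10% of its cells. Counts summed per class and library were tested with the quasi-likelihood test of edgeR 4.0.16 in R 4.3.3 (TMM, class plus library, Benjamini-Hochberg adjustment over all genes) in 16 classes. Glial progenitors were left out with 17 cells in replicate 2. DESeq2 1.42.0 was an alternative. Excitatory neurons are the mean of both laminar classes on the log scale. A log2 value given without a replicate is the ratio of CPM in the other library, without TMM.

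Pairing comes from the library, since classes of a library share a suspension, and the library was a block. Library differences correlated across the 16 classes at -0.03 to 0.14. On simulated data for IPC-like against RGC-like cells, 99% of genes changed by 1 and 100% of those changed by 2 on the log2 scale were recovered (100 genes each, of 13051 run), and 6.13% of the genes called had not been changed. The changed genes were drawn from those with high counts in every sum. The simulation held a fixed dispersion, no library effect and fewer classes than the fit. It does not speak for genes with few UMIs. Intervals and floors cover counting error only. The genes named were the 6 members, the 3 companions with the largest called change in each comparison with at least 10 CPM and 1 direction in both libraries, the antisense genes *Pax6os1* and *Emx2os*, and the 3 genes most like each member. A companion that this rule names is not reported here. Promoter sequences are from RefSeq on GRCm38.p6, with windows for 5 of the 6 members. The members and lists were chosen with earlier results of these data known. Cells clustered on genes that vary with the members are not independent of them. Comparisons that share a class share its cells.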

Additional observations from a re-analysis of the deposited data

Results flagged for a closer look

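The effect of S or G2M phase differed between RGC-like and IPC-like cells for 3 of the 6 genes, by a test of the difference itself with edgeR, in which 2.79% of 11692 genes were called. For *Emx1* the log2 effect in RGC-like cells exceeded that in IPC-like cells by 1.45 ± 0.301 (adjusted p = 0.00918), and for *Lhx2* by 0.85 ± 0.139 (adjusted p = 0.00141). For *Insm1* the difference was -2.12 ± 0.261 (adjusted p = 8.76e-05). *Lhx2* was called in all 10 alternatives, at 0.73 to 1.1, and *Emx1* in all but DESeq2. *Insm1* was called in 6 of the 10.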

How the results depend on the processing

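With RLE size factors all 68 values on the 6 genes stood on the same side of the threshold, and without a filter on low counts 67 did. Without the replicate block 65 did and 3 were lost, *Lhx2* in IPC-like phases (adjusted p = 0.0984) and *Emx2* and *Insm1* in RGC-like phases, so 3 genes were called there in place of 5. With DESeq2 58 stood, and 3 of the 6 genes were called from IPC-like to newborn neuron-like cells (5 with edgeR), 2 in RGC-like phases (5) and 2 in IPC-like phases (5). When clusters and sums came from separate portions of the UMIs, 1 gene was called between the laminar classes (4) and 3 in IPC-like phases, as also without regression of the cycle scores.

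With doublets kept, 0 of the 6 genes were called with edgeR in IPC-like phases (3 at an unadjusted p under 0.05, and 0 with DESeq2). Between the *Eomes* states, 0 of 4 genes were called with separate portions of the UMIs and 0 with states from thinned cells (1 at an unadjusted p under 0.05 in each, *Insm1*, and 0 with DESeq2), against 1.

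Genes called in RGC-like phases numbered 2776, against 1770 with a mitochondrial limit of 5%, 1839 with separate portions and 591 with DESeq2. In IPC-like phases they numbered 3435, against 216 with doublets kept, 1614 with separate portions and 858 with DESeq2. From Pax6+Eomes- to Pax6+Eomes+ cells they numbered 3967, against 2015 with separate portions, 1822 with DESeq2 and 1599 with thinned states. Between the *Eomes* states they numbered 535, against 52 with doublets kept, 335 with the 5% limit, 53 with separate portions, 186 with DESeq2 and 54 with thinned states. The separate portions and the thinned states hold fewer UMIs, and the cause of the other changes was not tested.

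The direction turned for *Insm1* in RGC-like phases with the members in the clustering (0.60), without regression (0.99) and with separate portions (1.30). With separate portions it also turned for *Eomes* in RGC-like phases (0.71) and for the difference of *Insm1* between the classes (0.37), and with doublets kept for *Pax6* in IPC-like phases (-0.0295). *Pax6* and *Eomes* were found together in 55.7% of IPC-like cells, in 12.9% after thinning, in 30.02% when at least 2 UMIs were asked for, and in 51.5% to 59.9% in single libraries. With 2 libraries, leaving 1 out gives a value with no test. For the log2 changes it is a ratio of CPM without TMM, set against the edgeR estimate. Of these values on the 6 genes, 45 lay further from that estimate than the SD between the libraries and 79 did not. The measure changes along with the library, so these counts cannot show how far a result depends on a library.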
